A study of Mus musculus with 12 samples.

Results

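Solute carriers are membrane proteins that move nutrients, ions, vitamins and metabolites across the plasma membrane and the membranes of organelles, and their genes are named Slc with a family number. The files list 374 genes whose name starts with Slc and a digit, and 159 of them (42.5%) reached 1 FPKM in at least 3 of the 12 libraries, and these are the genes described here. The genes were thus chosen by their FPKM levels and by no difference between groups, so the levels below are a description. Of the 159, 5 are not transporters but carry the name of one: the scaffold Slc9a3r1, the readthrough locus Slc10a3-ubl4, Slc7a6os, which lies on the opposite strand of Slc7a6, the adaptor Slc4a1ap and Slc2a4rg-ps, named as a pseudogene of a regulator. They were counted as a class of their own.

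RNA was from CD4+ T cells of male C57BL/6 mice aged 8 to 10 weeks, enriched by negative magnetic selection from spleen or lymph node. There were 3 libraries in each of 4 groups: Adcy10-/- cells in baseline medium with polarizing cytokines, Adcy10-/- cells in baseline medium, wild-type (WT) cells in baseline medium with polarizing cytokines, and WT cells in baseline medium. The product of Adcy10 is soluble adenylyl cyclase, which makes cyclic AMP inside the cell and is switched on by bicarbonate. The labels give 1 recipe for all groups: 18 hours on coated anti-CD3 (10 µg/mL) with soluble anti-CD28 (2 µg/mL), IL-6 (25 ng/mL), IL-23 and IL-1β (20 ng/mL each), plus antibodies against IL-4 and against interferon-γ (1 µg/mL each). They do not say which of these additions baseline medium held, and both media are labelled Th17, so the difference between media is known only by its label. They also do not give the allele, or say whether replicates came from separate mice, so p-values measure only the spread between these samples.

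Activated T cells are known to take up far more glucose and amino acids than resting ones, to send out lactate made by glycolysis, and to keep their pH with proton and bicarbonate carriers. Slc2 proteins carry hexoses, Slc16 proteins carry lactate and other monocarboxylates, Slc7 and Slc38 proteins carry amino acids, Slc4 proteins carry bicarbonate, and Slc25 proteins link the cytosol to the mitochondrial matrix. Zinc enters the cytosol through Slc39 proteins and leaves it through Slc30 proteins.

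FPKM scales for library size and transcript length, so levels can be set against each other, but read depth is unknown. The 12 libraries correlated within groups at 0.986 or more on the log scale, and Slc genes made up 0.617% to 0.661% of all FPKM in a library. All 12 libraries list the targeted gene, Adcy10, at 0 FPKM, which leaves the genotype labels unchecked by that gene, whereas a set of 10 housekeeping genes had 0 members at 0 anywhere. The 9 CD4 T cell markers found in the files summed to between 1816 and 2277 FPKM in every library. With cytokines and without the replicate block described below, Cd5 rose in both genotypes, Cd4 fell in Adcy10-/- cells and Cd2 rose in WT cells. With the block, Cd4 also fell in WT cells (log2 change -0.30, adjusted p = 0.0128) and Cd2 also rose in Adcy10-/- cells (log2 change 0.21, adjusted p = 0.0357). Marker lists summed to 8.43 to 14.7 FPKM for CD8 T cells, 2.04 to 53.1 for B cells, 0.911 to 62.8 for neutrophils, 0.617 to 2.54 for dendritic cells, 1.04 to 3.02 for NK cells and 0.809 to 193 for red cells, and no gene of these lists passed in any comparison. Libraries numbered 1 stood apart from those numbered 2 and 3 in both genotypes and both media. For 16 of the 159 Slc genes (10.1%) the 4 libraries numbered 1 did not overlap the other 8, against 11.2% of all genes tested. Among them was the leucine carrier Slc7a5, at 76.2 to 80.8 FPKM in the libraries numbered 1 and 84.7 to 97.2 FPKM in the others. The choline-like transporter Slc44a2 was at 59.0 to 66.6 FPKM in the libraries numbered 1 and 47.5 to 54.9 FPKM in the others. Tests were therefore run both without and with a replicate block, a term that compares libraries of the same number with each other, and each result says which fit it comes from.

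Slc genes were expressed at levels somewhat below those of other genes, with a median over genes of 6.94 FPKM (mean of 12 libraries) against 11.7 FPKM for all 10126 genes tested. A mean of 50 FPKM or more was reached by 14 of the 159, 84 lay between 5 and 50 FPKM, and 61 lay below 5 FPKM. The mitochondrial carriers led, with the ADP/ATP carrier Slc25a5 at 865 FPKM, the phosphate carrier Slc25a3 at 381 FPKM and Slc25a4, a close relative of Slc25a5, at 147 FPKM. Slc25a5 alone held 46.7% of the FPKM of its class, and how the authors' counting divided reads between such close copies is uncertain. The leading amino acid carriers were the glutamine transporter Slc1a5 at 109 FPKM, Slc7a5 at 87.1 FPKM and Slc3a2, the heavy chain that Slc7a5 pairs with, at 76.9 FPKM. Next to these came the nucleoside carrier Slc29a1 at 78.4 FPKM, the zinc transporter Slc39a7 of the endoplasmic reticulum and Golgi at 67.5 FPKM, Slc35a4 at 65.4 FPKM and the folate carrier Slc19a1 at 56.1 FPKM.

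For glucose, Slc50a1 (38.9 FPKM), a sugar carrier of the SWEET family, and Slc2a1 (38.5 FPKM), the main glucose carrier of activated T cells, led. For lactate, Slc16a1 (37.5 FPKM) and Slc16a3 (21.8 FPKM) were the 2 members of 6 listed genes. For bicarbonate, 3 of 10 listed genes passed the limit: the chloride/bicarbonate exchanger Slc4a2 (11.4 FPKM), the sodium/bicarbonate cotransporter Slc4a7 (4.37 FPKM) and Slc4a11 (0.681 FPKM), which sits in the family but is known as a proton or hydroxide pathway and not as a bicarbonate carrier. Of the bicarbonate genes outside the limit, Slc4a8 came closest with a highest value of 0.629 FPKM, and Slc4a1, Slc4a4 and Slc4a10 reached no more than 0.0412, 0.0311 and 0.0203 FPKM in any library. The mitochondrial family was the most widely expressed, with 36 of 47 genes inside the limit, against 39 of 79 ion carriers, 9 of 22 sugar carriers and 15 of 53 amino acid carriers. Of the Slc genes outside the limit, 75 were listed at 0 in all 12 libraries, among them the epithelial sodium/proton exchanger Slc9a3, and 140 were above 0 in some.

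**Figure D1:**
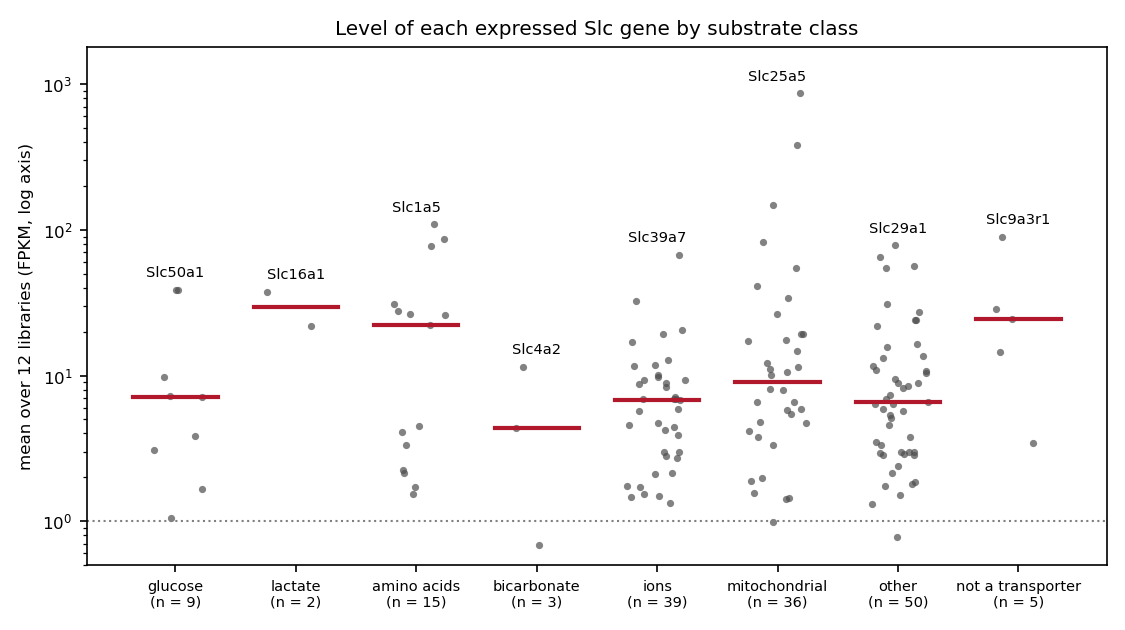
Mean FPKM over 12 libraries (log axis) of each of the 159 Slc genes, by substrate class, with a red line at the class median, a dotted line at 1 FPKM and the leading gene of each class named. Slc25a5 stands highest at 865 FPKM, and Slc4a11 is the lowest point at 0.681 FPKM.

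Of the 159, 154 were at 1 FPKM or more in all 12 libraries. Just inside it lay Slc4a11 and Slc35f5, each with 4 libraries at 1 FPKM or more, all of them cytokine libraries, and Slc25a47, also with 4, of which 2 were Adcy10-/- cytokine and 2 were WT baseline libraries. Just outside it lay Slc27a1 and Slc15a2, with means of 0.902 and 0.791 FPKM and 2 libraries at the limit each, and Slc7a3, at 0.683 FPKM with none. Slc4a11 and Slc35f5 could pass the limit only because they were high with cytokines, so their cytokine effects below are not independent of how they were chosen.

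Changes with cytokines are described by substrate class, and the promoters of 4 lactate, glucose and zinc carriers are shown first. These 4 genes were picked after their values were seen, and all 4 hold the word marked below, which many genes lack. Each sequence is the 250 bases before the RefSeq transcript start on GRCm38.p6, plus strand, at chr11:120948817-120949066 for Slc16a3, chr3:104638414-104638663 for Slc16a1, chr4:119108495-119108744 for Slc2a1 and chr3:90247942-90248191 for Slc39a1. Capitals mark ACGTG on either strand, the core letters of the hypoxia response element. In Slc16a1 the matches on the 2 strands overlap and spell the E-box CACGTG.
Slc16a3: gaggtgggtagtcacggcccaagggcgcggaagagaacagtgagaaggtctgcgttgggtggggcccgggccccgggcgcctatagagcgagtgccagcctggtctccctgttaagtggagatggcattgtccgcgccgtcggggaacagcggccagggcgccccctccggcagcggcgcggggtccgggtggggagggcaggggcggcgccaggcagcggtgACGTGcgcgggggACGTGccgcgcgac
Slc16a1: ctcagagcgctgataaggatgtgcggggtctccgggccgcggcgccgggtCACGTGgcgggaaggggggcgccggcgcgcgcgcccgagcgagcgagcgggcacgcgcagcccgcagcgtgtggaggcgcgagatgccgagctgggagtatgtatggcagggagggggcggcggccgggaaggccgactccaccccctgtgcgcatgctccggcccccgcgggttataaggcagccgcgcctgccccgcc
Slc2a1: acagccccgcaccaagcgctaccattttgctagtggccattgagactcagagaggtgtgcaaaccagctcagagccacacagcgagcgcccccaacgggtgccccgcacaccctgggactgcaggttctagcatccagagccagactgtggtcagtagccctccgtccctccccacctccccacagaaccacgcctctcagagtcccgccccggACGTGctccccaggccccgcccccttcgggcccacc
Slc39a1: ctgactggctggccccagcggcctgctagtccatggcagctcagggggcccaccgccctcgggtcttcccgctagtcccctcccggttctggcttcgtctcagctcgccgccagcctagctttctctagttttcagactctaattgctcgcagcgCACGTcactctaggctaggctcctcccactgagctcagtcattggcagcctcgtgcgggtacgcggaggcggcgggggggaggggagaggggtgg

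ACGTG is a common word: 16.6% of all 32851 windows of this length held it, as did at least 1 window of 33 of the 118 Slc genes with a sequence. Among genes that rose or fell with cytokines in either genotype with the block, 6 of 12 higher genes and 5 of 12 lower genes with a sequence held it, where a gene with several starts counts once if any window holds it. The E-box CACGTG, which contains ACGTG, was in 1 of 12 higher, 3 of 12 lower and 20 of 118 Slc genes and in 6.02% of all windows. The STAT word TTCNNNGAA was in 1 of 12 higher, 2 of 12 lower and 6 of 118 Slc genes (7.02% of all windows), and the cyclic AMP response element TGACGTCA was in 0 of 12, 0 of 12 and 2 of 118 (1.55% of all windows). The core of the metal response element, searched as TGCACNC or TGCGCNC, was in 4 of 12 higher, 5 of 12 lower and 39 of 118 Slc genes (21.4% of all windows). These are matches of letters on both strands, not binding sites, and their part in any change with cytokines was not tested.

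Polarizing cytokines moved few Slc genes, and by modest amounts. In Adcy10-/- cells 4 of 159 passed without the block, against 4.27% of all genes tested (2.14% higher, 2.12% lower): Slc16a3, Slc4a11 and the zinc importer Slc39a8 rose and the lysosomal nucleoside carrier Slc29a3 fell. In WT cells 7 of 159 passed, against 4.93% of all genes tested (2.65% higher, 2.28% lower): Slc16a3, Slc4a11, the zinc importer Slc39a1, the heme carrier Slc48a1, the fatty acid carrier Slc27a4 and Slc35b1, an ATP carrier of the endoplasmic reticulum, rose, and the phosphate importer Slc20a1 fell. Slc16a3 and Slc4a11 were the 2 genes that passed in both genotypes, and Slc4a11 is in both counts through the limit described above. Both shares lie close to the background, so Slc genes as a group were not set apart from other genes by these counts. At an unadjusted p under 0.05 there were 28 members in Adcy10-/- cells and 32 in WT cells. The share of all genes tested at that level is not given here. Counts at an unadjusted p, here and below, therefore set no class apart.

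The numbers pair libraries within each genotype, whereas the replicate block gives both genotypes the same number terms. With this block, 18 of 159 passed in Adcy10-/- cells (10 higher, 8 lower) and 28 in WT cells (14 higher, 14 lower). Of all genes tested, 10.7% passed in Adcy10-/- cells (4.74% higher, 5.98% lower) and 14.8% in WT cells (7.41% higher, 7.43% lower). With a separate block for each genotype the counts were 19 in Adcy10-/- cells (12 higher, 7 lower) and 27 in WT cells (16 higher, 11 lower). Values of single genes with the block are from the shared block, and those of the separate block are not given here. The shares of all genes were then 11.8% in Adcy10-/- cells (5.41% higher, 6.37% lower) and 15.5% in WT cells (8.05% higher, 7.5% lower). All genes that passed without the block also passed with it. None of the 159 changed by more than 2-fold on the log2(FPKM + 1) scale in either genotype. That scale understates the change of genes near 1 FPKM, such as Slc4a11. The cytokine and baseline libraries did not overlap for 39 genes in Adcy10-/- cells (24.5%, against 21.6% of all genes tested) and for 39 genes in WT cells (24.5%, against 20.8%). In bulk RNA, fewer cells of a type and less RNA per cell cannot be told apart.

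**Figure D2:**
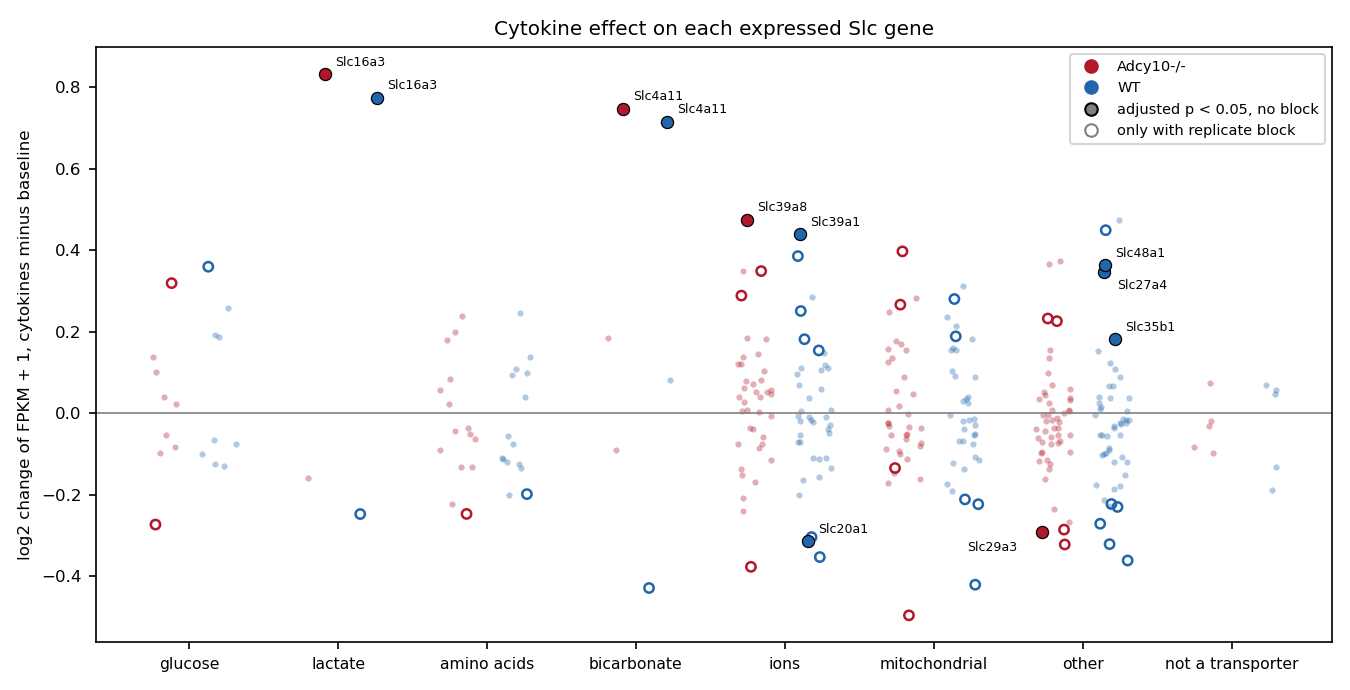
Log2 change of FPKM + 1, cytokines minus baseline, for each of the 159 Slc genes by substrate class, Adcy10-/- in red and WT in blue. Filled points with a black edge passed without the replicate block and are named, and open points passed only with it. Slc16a3 and Slc4a11 stand highest in both genotypes, and most points lie near 0.

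Of the 2 lactate carriers, Slc16a3 rose in both genotypes and Slc16a1 fell in WT cells with the block. Slc16a3 (MCT4), the carrier known for lactate export from highly glycolytic cells, had the largest change of the 159 Slc genes in both genotypes on the log2(FPKM + 1) scale. Slc16a3 had 24.0, 30.3 and 26.7 FPKM in the Adcy10-/- cytokine libraries, against 12.4, 17.1 and 14.7 FPKM in the Adcy10-/- baseline libraries. Slc16a3 in WT cells was at 27.9, 26.5 and 31.7 FPKM in the cytokine libraries, against 14.4, 14.0 and 21.3 FPKM in the baseline libraries. Every cytokine library was above every baseline library of its genotype, and of the other genotype too. Slc16a3 rose in Adcy10-/- cells (log2 change 0.83, SE 0.16, adjusted p = 0.0121) and in WT cells (log2 change 0.77, SE 0.16, adjusted p = 0.0162), and with the block the adjusted p was 0.00309 in Adcy10-/- and 0.00426 in WT cells. Without the block, the call ended in Adcy10-/- cells when baseline library 1 or cytokine library 2 was left out (adjusted p up to 0.0557), and in WT cells when baseline library 1 or 2 or cytokine library 1 or 3 was left out (adjusted p up to 0.0861).

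Slc16a1 (MCT1), which carries lactate in either direction, was the more abundant of the pair. It had 32.7, 38.5 and 34.3 FPKM in the Adcy10-/- cytokine libraries, against 38.8, 39.0 and 40.1 FPKM in the Adcy10-/- baseline libraries. Slc16a1 in WT cells was at 31.4, 34.9 and 36.9 FPKM in the cytokine libraries, against 37.2, 43.3 and 42.4 FPKM in the baseline libraries. The cytokine libraries lay below the baseline libraries in both genotypes, with a narrow gap and no overlap. Slc16a1 did not pass in Adcy10-/- cells (log2 change -0.16, SE 0.079, adjusted p = 0.384 without and 0.0917 with the block) and fell in WT cells with the block (log2 change -0.25, SE 0.079, adjusted p = 0.104 without and 0.0146 with the block). The lactate class as a whole summed to 56.6 to 68.8 FPKM with cytokines and 51.2 to 56.2 FPKM at baseline in Adcy10-/- cells, and to 59.2 to 68.6 FPKM with cytokines and 51.7 to 63.8 FPKM at baseline in WT cells.

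Both proteins need a partner to reach the cell surface, which is basigin (Bsg) or embigin (Emb). Bsg had 200.4, 228 and 209 FPKM in the Adcy10-/- cytokine libraries, against 185, 191 and 198 FPKM in the Adcy10-/- baseline libraries. Bsg in WT cells was at 220.3, 226 and 228 FPKM in the cytokine libraries, against 178, 186 and 198 FPKM in the baseline libraries. All 3 cytokine libraries were above all 3 baseline libraries in both genotypes. Bsg did not pass in Adcy10-/- cells and rose in WT cells without the block (log2 change 0.26, SE 0.057, adjusted p = 0.0236). Emb rose with the block in Adcy10-/- cells (log2 change 0.25, block SE 0.051, adjusted p = 0.0114) and in WT cells (log2 change 0.27, block SE 0.051, adjusted p = 0.00805). Of 7 partner and pyruvate carrier genes tested, 0 passed in Adcy10-/- cells without the block, against 4.27% of all genes tested. In WT cells 2 rose and 0 fell, against 2.65% and 2.28% of all genes tested. The other that rose was Stom (log2 change 0.73, SE 0.15, adjusted p = 0.0158 in WT cells), a membrane scaffold known to bind Slc2a1, at 0.418 to 1.87 FPKM across libraries. With the block Stom also rose in Adcy10-/- cells (log2 change 0.51, block SE 0.14, adjusted p = 0.0465). Stom reached 1 FPKM in cytokine libraries only, so it too was tested through the group where it was high.

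Among the sugar carriers, Slc2a1 (GLUT1) rose with cytokines in both genotypes with the block, and Slc2a3 (GLUT3), a high-affinity glucose carrier, fell in Adcy10-/- cells. Slc2a1 had 39.3, 44.5 and 41.3 FPKM in the Adcy10-/- cytokine libraries, against 28.7, 37.6 and 33.8 FPKM in the Adcy10-/- baseline libraries. Slc2a1 in WT cells was at 39.6, 46.3 and 47.0 FPKM in the cytokine libraries, against 28.7, 34.2 and 40.7 FPKM in the baseline libraries. The Adcy10-/- groups did not overlap, whereas in WT cells cytokine library 1 lay below baseline library 3, and each cytokine library was above the baseline library of its own number in all 6 pairs. Slc2a1 rose with the block in Adcy10-/- cells (log2 change 0.32, SE 0.13, adjusted p = 0.227 without and 0.0215 with the block) and in WT cells (log2 change 0.36, SE 0.13, adjusted p = 0.137 without and 0.0116 with the block). Slc2a3 had 5.20, 6.26 and 6.81 FPKM in the Adcy10-/- cytokine libraries, against 7.30, 7.49 and 7.81 FPKM in the Adcy10-/- baseline libraries. Slc2a3 in WT cells was at 7.26, 6.76 and 7.54 FPKM in the cytokine libraries, against 7.34, 7.33 and 8.23 FPKM in the baseline libraries. Only the Adcy10-/- groups were apart, with all 3 cytokine libraries lower (log2 change -0.27, SE 0.085, adjusted p = 0.111 without and 0.0242 with the block), and in WT cells the log2 change was -0.076 (SE 0.085, adjusted p = 0.47 with the block). The difference between these 2 effects did not pass (interaction -0.20, 95% interval -0.46 to 0.067, adjusted p = 1.00).

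The other 7 sugar carriers did not pass in either genotype. Slc50a1 had a log2 change of -0.084 (SE 0.089) in Adcy10-/- and -0.10 (SE 0.089) in WT cells, and Slc2a6, a lysosomal hexose carrier, had 0.023 (SE 0.19) and 0.26 (SE 0.19). Summed over the class, sugar carrier FPKM was 110.9 to 115.7 with cytokines and 106.9 to 110.1 at baseline in Adcy10-/- cells, and 115.0 to 116.2 with cytokines and 105.3 to 110.9 at baseline in WT cells. Neither pair of ranges overlapped. On group means Slc2a1 rose by more than the class sum in both genotypes, so the rest of the class summed lower with cytokines. The class also holds 4 sugar phosphate exchangers of the endoplasmic reticulum, so its sum does not measure sugar uptake genes alone.

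**Figure D3:**
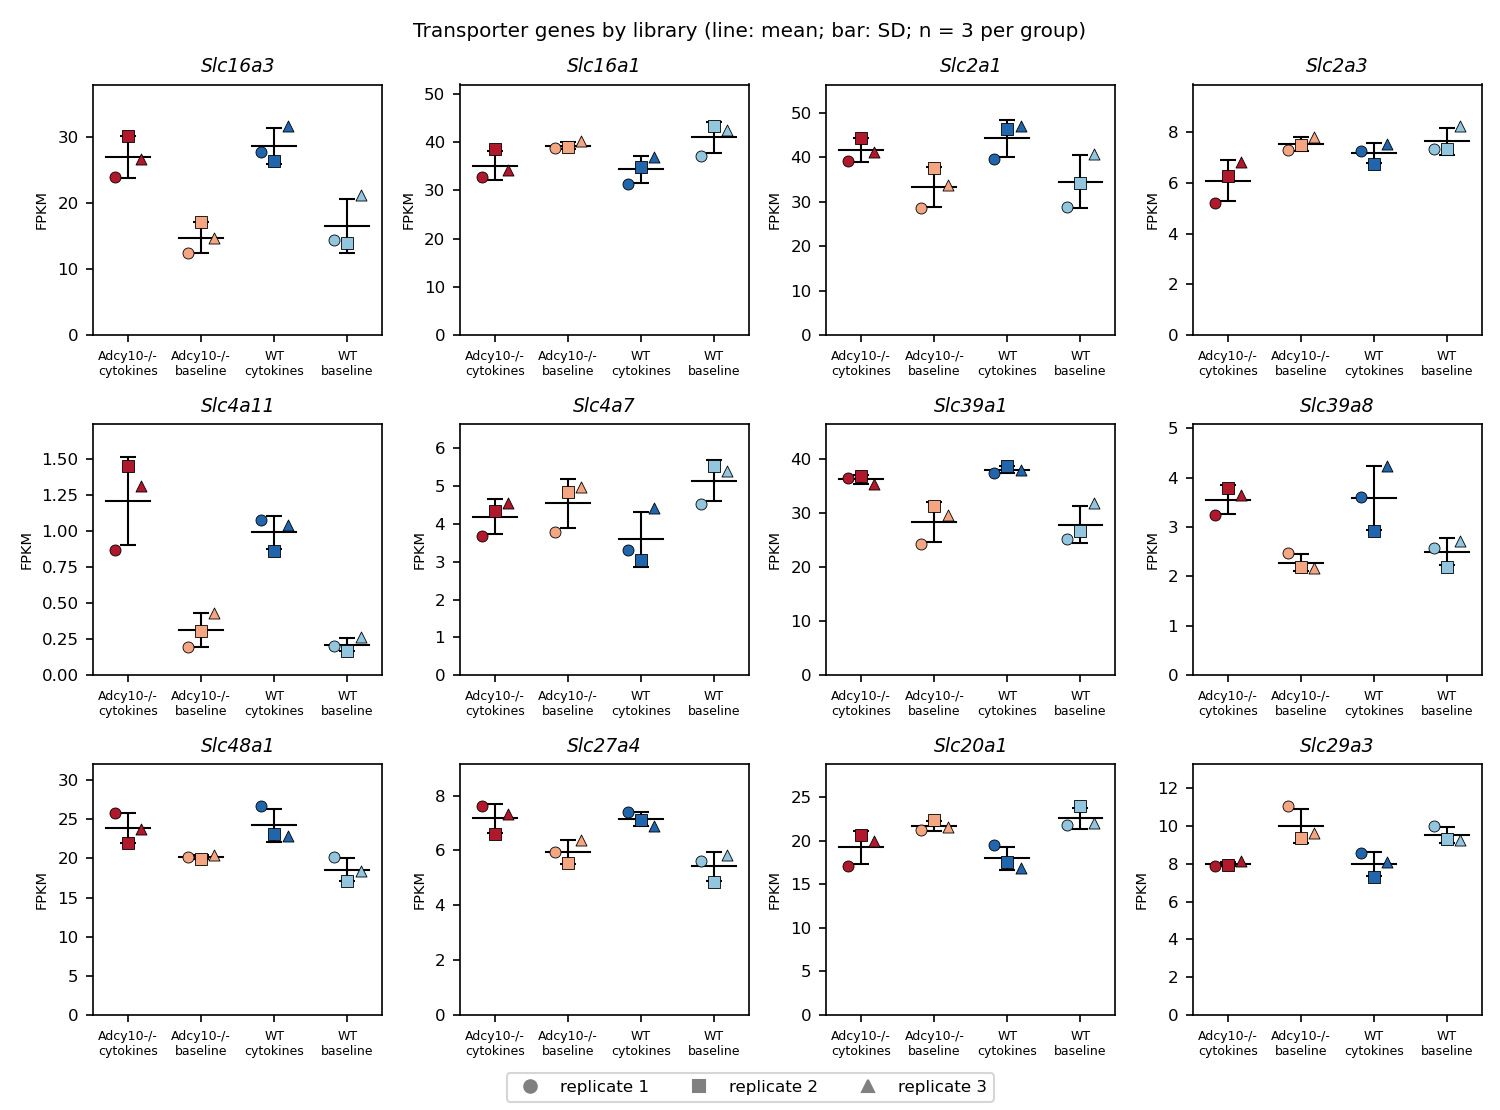
FPKM in each library of 12 Slc genes, 3 per group (point shape gives the replicate number, line the mean, bar the SD), from left to right Adcy10-/- cytokines, Adcy10-/- baseline, WT cytokines and WT baseline. Slc16a3, Slc4a11 and Slc39a1 are higher in all cytokine libraries of both genotypes, and Slc29a3 is lower in all of them.

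The bicarbonate family held the least abundant gene that moved and 1 of the larger falls, while its most abundant member did not pass. Slc4a11 had 0.866, 1.45 and 1.31 FPKM in the Adcy10-/- cytokine libraries, against 0.197, 0.304 and 0.432 FPKM in the Adcy10-/- baseline libraries. Slc4a11 in WT cells was at 1.07, 0.859 and 1.04 FPKM in the cytokine libraries, against 0.202, 0.170 and 0.264 FPKM in the baseline libraries. No cytokine library overlapped a baseline library in either genotype, and the mean was 3.89 times the baseline mean in Adcy10-/- cells and 4.68 times in WT cells. Slc4a11 rose in Adcy10-/- cells (log2 change 0.75, SE 0.12, adjusted p = 0.00485) and in WT cells (log2 change 0.72, SE 0.12, adjusted p = 0.00566), but this gene met the 1 FPKM limit only through cytokine libraries, so these values are no independent evidence.

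Slc4a7 had 3.68, 4.35 and 4.56 FPKM in the Adcy10-/- cytokine libraries, against 3.79, 4.86 and 4.99 FPKM in the Adcy10-/- baseline libraries. Slc4a7 in WT cells was at 3.30, 3.05 and 4.43 FPKM in the cytokine libraries, against 4.53, 5.53 and 5.40 FPKM in the baseline libraries. The Adcy10-/- groups overlapped, and the WT groups were apart, with cytokine libraries lower. Slc4a7 did not pass in Adcy10-/- cells (log2 change -0.091, SE 0.13, adjusted p = 0.853 without and 0.576 with the block) and fell in WT cells with the block (log2 change -0.43, SE 0.13, adjusted p = 0.0829 without and 0.00997 with the block). The difference between the 2 effects did not pass (interaction 0.34, 95% interval -0.057 to 0.73, unadjusted p = 0.0867, adjusted p = 1.00). Slc4a2, the most abundant of the 3, had 12.3, 12.1 and 13.0 FPKM in the Adcy10-/- cytokine libraries, against 10.1, 11.2 and 11.3 FPKM in the Adcy10-/- baseline libraries. Slc4a2 in WT cells was at 11.4, 11.4 and 11.9 FPKM in the cytokine libraries, against 11.0, 9.81 and 11.9 FPKM in the baseline libraries. Its cytokine libraries were above its baseline libraries in Adcy10-/- cells, and the WT groups overlapped. Slc4a2 did not pass in Adcy10-/- cells (log2 change 0.18, SE 0.072, adjusted p = 0.219 without and 0.0718 with the block) or in WT cells (log2 change 0.082, SE 0.072, adjusted p = 0.604 without and 0.378 with the block). Carbonic anhydrases, the enzymes that interconvert carbon dioxide and bicarbonate, had 3 of 16 genes tested, Car1, Car2 and Car12, of which 0 passed in either genotype with or without the block, with 0 at an unadjusted p under 0.05 in either genotype without it. Their list summed to 11.5 to 14.8 FPKM with cytokines and 11.0 to 15.3 FPKM at baseline in Adcy10-/- cells, and to 11.7 to 16.0 FPKM with cytokines and 11.9 to 14.3 FPKM at baseline in WT cells.

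Most ion carriers that rose were zinc importers. Of 17 zinc genes tested, with the block 3 rose and 0 fell in Adcy10-/- cells and 4 rose and 0 fell in WT cells, and all of them belonged to the Slc39 family. With the block, 4.74% of all genes tested rose in Adcy10-/- cells and 7.41% in WT cells. Slc39a1 (ZIP1), a zinc importer of the plasma membrane, had 36.5, 36.9 and 35.4 FPKM in the Adcy10-/- cytokine libraries, against 24.3, 31.3 and 29.7 FPKM in the Adcy10-/- baseline libraries. Slc39a1 in WT cells was at 37.4, 38.7 and 37.9 FPKM in the cytokine libraries, against 25.2, 26.6 and 31.8 FPKM in the baseline libraries. The cytokine libraries were tightly grouped and above all baseline libraries in both genotypes. Slc39a1 rose in Adcy10-/- cells with the block (log2 change 0.35, SE 0.10, adjusted p = 0.0669 without and 0.0206 with the block) and in WT cells in both fits (log2 change 0.44, SE 0.10, adjusted p = 0.0229 without and 0.00659 with the block). Slc39a8 (ZIP8), which imports zinc and manganese, had 3.24, 3.80 and 3.64 FPKM in the Adcy10-/- cytokine libraries, against 2.48, 2.19 and 2.17 FPKM in the Adcy10-/- baseline libraries. Slc39a8 in WT cells was at 3.61, 2.92 and 4.23 FPKM in the cytokine libraries, against 2.57, 2.20 and 2.73 FPKM in the baseline libraries. No group overlapped its counterpart, although WT cytokine library 2 lay close to the highest WT baseline library. Slc39a8 rose in Adcy10-/- cells in both fits (log2 change 0.48, SE 0.11, adjusted p = 0.0295 without and 0.012 with the block) and in WT cells with the block (log2 change 0.39, SE 0.11, adjusted p = 0.066 without and 0.0263 with the block).

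Slc39a14 (ZIP14), a zinc, iron and manganese importer, rose with the block in Adcy10-/- cells (log2 change 0.29, SE 0.095, adjusted p = 0.133 without and 0.0173 with the block) and in WT cells (log2 change 0.25, SE 0.095, adjusted p = 0.17 without and 0.027 with the block). Its level was 9.57 ± 0.834 FPKM with cytokines and 7.65 ± 0.547 FPKM at baseline in Adcy10-/- cells, and 9.65 ± 0.427 FPKM with cytokines and 8.00 ± 1.17 FPKM at baseline in WT cells (SD, n = 3 each). Slc39a7 had a log2 change of 0.078 (SE 0.054, adjusted p = 0.211 with the block) in Adcy10-/- cells and rose with the block in WT cells (log2 change 0.15, SE 0.054, adjusted p = 0.141 without and 0.0188 with the block). The zinc exporter Slc30a1, known to follow cellular zinc, had 3.18, 2.71 and 2.71 FPKM in the Adcy10-/- cytokine libraries, against 2.92, 2.65 and 2.70 FPKM in the Adcy10-/- baseline libraries. Its log2 change was 0.04 (SE 0.083) in Adcy10-/- cells and 0.0073 (SE 0.083) in WT cells, and it passed in neither fit. The median log2 change of the 17 zinc genes was 0.051 in Adcy10-/- and 0.0063 in WT cells, against -0.020 and -0.013 for all genes tested.

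Metal-handling genes outside the Slc families were examined beside the zinc carriers, and the metallothioneins Mt1 and Mt2 rose in both genotypes. The metallothionein Mt3, at 0 to 1.41 FPKM across libraries, did not pass in either genotype, with or without the block. The metallothionein Mt1 had 15.8, 17.9 and 19.5 FPKM in the Adcy10-/- cytokine libraries, against 5.67, 8.66 and 8.27 FPKM in the Adcy10-/- baseline libraries. Mt1 in WT cells was at 19.8, 15.0 and 16.9 FPKM in the cytokine libraries, against 6.93, 5.50 and 12.7 FPKM in the baseline libraries. Every cytokine library exceeded every baseline library. Mt1 rose in Adcy10-/- cells (log2 change 1.15, SE 0.23, adjusted p = 0.0182) and in WT cells (log2 change 1.03, SE 0.23, adjusted p = 0.029), as did Mt2 (log2 change 1.15, SE 0.20, adjusted p = 0.00933 and log2 change 0.98, SE 0.20, adjusted p = 0.0192). The ferritin heavy chain Fth1 rose in WT cells without the block (log2 change 0.37, SE 0.089, adjusted p = 0.039). With the block Fth1 also rose in Adcy10-/- cells (log2 change 0.21, block SE 0.054, adjusted p = 0.0357). Of 12 metal-handling genes tested, 2 rose in Adcy10-/- and 3 rose in WT cells without the block, 3 in Adcy10-/- and 6 in WT cells rose with it, and 0 fell in any of these fits. Of all genes tested, 2.14% rose in Adcy10-/- and 2.65% in WT cells without the block, and 4.74% in Adcy10-/- and 7.41% in WT cells with it. Their median log2 change was 0.11 in Adcy10-/- and 0.18 in WT cells.

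Slc48a1 (HRG1), which moves heme out of lysosomes, had 25.8, 22.0 and 23.7 FPKM in the Adcy10-/- cytokine libraries, against 20.2, 19.9 and 20.5 FPKM in the Adcy10-/- baseline libraries. Slc48a1 in WT cells was at 26.7, 23.1 and 22.8 FPKM in the cytokine libraries, against 20.2, 17.2 and 18.4 FPKM in the baseline libraries. Cytokine and baseline libraries did not overlap in either genotype. Slc48a1 rose in Adcy10-/- cells with the block (log2 change 0.23, SE 0.079, adjusted p = 0.161 without and 0.0202 with the block) and in WT cells in both fits (log2 change 0.36, SE 0.079, adjusted p = 0.0233 without and 0.00211 with the block). Hmox1, the heme-degrading enzyme, rose with the block in WT cells (log2 change 0.93, block SE 0.25, adjusted p = 0.0328). Heme and metal carriers are also known from macrophages, and macrophage markers were examined beside these genes. Of 8 macrophage and monocyte markers, 7 were in the files and 2 were tested, Lyz2 and Cd68; 0 passed, with 1 at an unadjusted p under 0.05 in WT cells. The 7 markers summed to 21.3 to 28.1 FPKM with cytokines and 15.2 to 20.3 FPKM at baseline in Adcy10-/- cells, and to 29.0 to 102.4 FPKM with cytokines and 20.1 to 65.5 FPKM at baseline in WT cells, with Lyz2 holding most of it. None of the 7 was at 0 in all libraries, and Csf1r, the receptor that defines the lineage, was at 0.0808 to 0.892 FPKM. Neutrophil markers, of which 5 of 6 were in the files, none at 0 in all libraries, summed to 0.911 to 16.3 FPKM with cytokines and 1.21 to 5.73 FPKM at baseline in Adcy10-/- cells, and to 12.4 to 62.8 FPKM with cytokines and 5.20 to 20.0 FPKM at baseline in WT cells. The 2 tested, S100a8 and S100a9, had a median log2 change of 0.78 in Adcy10-/- and 1.38 in WT cells, and neither passed, with 2 at an unadjusted p under 0.05 in WT cells with the block. The part of such cells in the metal and heme results was not tested.

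The remaining ion carriers that passed mostly fell. The phosphate importer Slc20a1 had 17.1, 20.7 and 20.0 FPKM in the Adcy10-/- cytokine libraries, against 21.2, 22.4 and 21.5 FPKM in the Adcy10-/- baseline libraries. Slc20a1 in WT cells was at 19.5, 17.6 and 16.9 FPKM in the cytokine libraries, against 21.7, 24.0 and 22.1 FPKM in the baseline libraries. The cytokine libraries were below every baseline library of their genotype, by a small margin in Adcy10-/- cells. Slc20a1 did not pass in Adcy10-/- cells (log2 change -0.17, SE 0.076, adjusted p = 0.324 without and 0.17 with the block). It fell in WT cells in both fits (log2 change -0.31, SE 0.076, adjusted p = 0.0389 without and 0.016 with the block), but its call without the block ended under quantile normalization and under median-ratio scaling. Slc9b2, a sodium/proton exchanger, fell with the block in Adcy10-/- cells (log2 change -0.38, adjusted p = 0.0366 with the block) and in WT cells (-0.35, adjusted p = 0.0394). The potassium/chloride cotransporter Slc12a4 had a log2 change of 0.14 in Adcy10-/- cells without a call, and rose with the block in WT cells (0.18, adjusted p = 0.0425).

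Of 13 ion pumps and related ATPases tested, 1 rose and 1 fell in each genotype without the block, and they were the same 2 genes. Among all genes tested, 2.14% rose and 2.12% fell in Adcy10-/- cells, and 2.65% rose and 2.28% fell in WT cells. Atp2b4, a plasma membrane calcium pump, had 9.08, 8.51 and 11.7 FPKM in the Adcy10-/- cytokine libraries, against 1.79, 4.73 and 4.67 FPKM in the Adcy10-/- baseline libraries. It rose in Adcy10-/- (log2 change 1.25, SE 0.30, adjusted p = 0.0401) and WT cells (log2 change 1.33, SE 0.30, adjusted p = 0.0291). Atp8b4, a lipid-flipping ATPase of the P4 family, fell in Adcy10-/- (log2 change -0.47, SE 0.10, adjusted p = 0.0282) and WT cells (log2 change -0.49, SE 0.10, adjusted p = 0.022). Across both genotypes Atp8b4 was at 1.39 to 2.18 FPKM at baseline and 0.728 to 1.29 FPKM with cytokines. It could meet the 1 FPKM limit only with its baseline libraries, so its fall is not independent of how it was chosen. Atp1b1, a sodium pump subunit, fell with the block in Adcy10-/- (log2 change -0.49, block SE 0.08, adjusted p = 0.00438) and WT cells (log2 change -0.42, block SE 0.08, adjusted p = 0.00801). Of 19 ABC transporters tested, 0 rose and 2 fell in each genotype without the block: the drug efflux pumps Abcb1b (log2 change -0.50 in Adcy10-/- and -0.46 in WT cells) and Abcg2 (-0.44 and -0.38). The shares of all genes tested that fell were 2.12% in Adcy10-/- and 2.28% in WT cells.

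Few amino acid carriers passed. Of 15 tested, 0 passed in either genotype without the block, with 2 in each at an unadjusted p under 0.05. Without the block 4.27% of all genes tested passed in Adcy10-/- and 4.93% in WT cells, so 0 of 15 does not set the class apart. With the block, Slc7a1 (CAT1), which imports arginine and lysine, fell in both genotypes. Slc7a1 had 21.2, 22.4 and 26.9 FPKM in the Adcy10-/- cytokine libraries, against 24.6, 27.5 and 32.1 FPKM in the Adcy10-/- baseline libraries. Slc7a1 in WT cells was at 22.6, 23.4 and 27.5 FPKM in the cytokine libraries, against 24.6, 29.8 and 30.5 FPKM in the baseline libraries. The groups overlapped in both genotypes, and each cytokine library was below the baseline library of its own number in all 6 pairs. Its log2 change was -0.25 (block SE 0.05, adjusted p = 0.012 with the block) in Adcy10-/- cells and -0.20 (block SE 0.05, adjusted p = 0.0273) in WT cells. The leading carriers did not pass, with a log2 change for Slc1a5 of -0.13 (SE 0.063) in Adcy10-/- and -0.11 (SE 0.063) in WT cells, for Slc7a5 of -0.089 (SE 0.10) and -0.056 (SE 0.10), and for Slc3a2 of -0.037 (SE 0.053) and 0.04 (SE 0.053). The smallest p of the class belonged to Slc43a2, a carrier of large neutral amino acids, in both genotypes (log2 change 0.24, SE 0.088, adjusted p = 0.189 in Adcy10-/- and log2 change 0.25, SE 0.088, adjusted p = 0.146 in WT cells). The class summed to 405.6 to 421.6 FPKM with cytokines and 431.0 to 442.5 FPKM at baseline in Adcy10-/- cells, which did not overlap, and to 409.3 to 427.0 FPKM with cytokines and 414.6 to 448.6 FPKM at baseline in WT cells, which did. The cystine carrier Slc7a11 stayed outside the limit, with a highest value of 0.328 FPKM.

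Genes that report amino acids to mTORC1, the growth kinase complex that amino acid carriers feed, were examined beside the carriers. Of 19 tested, 2 rose and 0 fell in each genotype without the block. The shares of all genes tested that rose were 2.14% in Adcy10-/- and 2.65% in WT cells. Gatsl3, which encodes an arginine sensor of the CASTOR family, had 21.0, 17.8 and 17.8 FPKM in the Adcy10-/- cytokine libraries, against 10.3, 13.0 and 12.6 FPKM in the Adcy10-/- baseline libraries. It rose in Adcy10-/- (log2 change 0.62, SE 0.14, adjusted p = 0.0253) and WT cells (log2 change 0.61, SE 0.14, adjusted p = 0.025). Rragd, a Rag GTPase that brings mTORC1 to the lysosome, also rose in Adcy10-/- (log2 change 0.74, SE 0.17, adjusted p = 0.0346) and WT cells (log2 change 0.73, SE 0.17, adjusted p = 0.0363). With the block, the leucine sensor family was split in WT cells, where Sesn3 and Sesn2 rose and Sesn1 fell (log2 change 0.46, 0.26 and -0.43). Sesn3 also rose with the block in Adcy10-/- cells (log2 change 0.54, block SE 0.12, adjusted p = 0.0176), where Sesn1 and Sesn2 did not pass.

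With the block, 2 of 4 nucleoside carriers fell in Adcy10-/- cells and 3 of 4 fell in WT cells, against 5.98% and 7.43% of all genes tested in Adcy10-/- and WT cells. Slc29a3, which exports nucleosides from lysosomes, had 7.90, 7.93 and 8.13 FPKM in the Adcy10-/- cytokine libraries, against 11.1, 9.39 and 9.63 FPKM in the Adcy10-/- baseline libraries. Slc29a3 in WT cells was at 8.57, 7.30 and 8.11 FPKM in the cytokine libraries, against 10.0, 9.32 and 9.27 FPKM in the baseline libraries. All cytokine libraries were below all baseline libraries in both genotypes. Slc29a3 fell in Adcy10-/- cells in both fits (log2 change -0.29, SE 0.073, adjusted p = 0.0467 without and 0.0094 with the block) and in WT cells with the block (log2 change -0.23, SE 0.073, adjusted p = 0.101 without and 0.0236 with the block), but its call without the block also ended under quantile normalization and median-ratio scaling. Slc29a1 (ENT1), the main nucleoside carrier of the plasma membrane, had 68.6, 73.3 and 69.8 FPKM in the Adcy10-/- cytokine libraries, against 97.0, 82.1 and 80.4 FPKM in the Adcy10-/- baseline libraries. Slc29a1 in WT cells was at 69.8, 78.2 and 68.6 FPKM in the cytokine libraries, against 86.4, 84.5 and 81.9 FPKM in the baseline libraries. Its cytokine libraries too were lower than its baseline libraries without overlap in each genotype. Slc29a1 fell with the block in Adcy10-/- cells (log2 change -0.29, SE 0.074, adjusted p = 0.054 without and 0.0206 with the block) and in WT cells (log2 change -0.22, SE 0.074, adjusted p = 0.115 without and 0.0473 with the block). The concentrative carrier Slc28a2 fell with the block in WT cells (log2 change -0.32, adjusted p = 0.0498), and so did the purine base carrier Slc43a3 (-0.36, adjusted p = 0.00876), one of the genes in which libraries numbered 1 stood apart. None of the 4 rose, and their median log2 change was -0.28 in Adcy10-/- and -0.23 in WT cells, against -0.020 and -0.013 for all genes tested.

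Among the other carriers, Slc27a4 (FATP4), which takes up long-chain fatty acids and joins them to coenzyme A, had 7.62, 6.58 and 7.31 FPKM in the Adcy10-/- cytokine libraries, against 5.93, 5.54 and 6.40 FPKM in the Adcy10-/- baseline libraries. Slc27a4 in WT cells was at 7.41, 7.12 and 6.91 FPKM in the cytokine libraries, against 5.61, 4.83 and 5.83 FPKM in the baseline libraries. Cytokine libraries were above baseline libraries in each genotype without overlap. Slc27a4 rose in Adcy10-/- cells with the block (log2 change 0.23, SE 0.079, adjusted p = 0.147 without and 0.035 with the block) and in WT cells in both fits (log2 change 0.35, SE 0.079, adjusted p = 0.0291 without and 0.00548 with the block). Slc35b1 was at 32.6 ± 0.497 FPKM with cytokines and 29.6 ± 0.414 FPKM at baseline in Adcy10-/- cells, and at 32.5 ± 1.26 FPKM with cytokines and 28.5 ± 0.993 FPKM at baseline in WT cells (SD, n = 3 each). It did not pass in Adcy10-/- cells (log2 change 0.14, SE 0.047, adjusted p = 0.153 without and 0.0612 with the block). In WT cells it rose (log2 change 0.18, SE 0.047, adjusted p = 0.0484 without and 0.016 with the block), but that call without the block held in 1 of the 12 fits that left out a library. Slc35f5, the other gene that met the limit through cytokine libraries, had a log2 change of 0.37 (adjusted p = 0.0667 with the block) in Adcy10-/- cells and rose with the block in WT cells (0.45, adjusted p = 0.0275). The vitamin C carrier Slc23a2 fell with the block in Adcy10-/- (log2 change -0.32, SE 0.092, adjusted p = 0.0797 without and 0.026 with the block) and WT cells (log2 change -0.27, SE 0.092, adjusted p = 0.122 without and 0.0435 with the block). The folate carrier Slc19a1 passed in neither fit, with log2 changes of -0.12 (SE 0.049) in Adcy10-/- and -0.10 (SE 0.049) in WT cells.

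Mitochondrial carriers were the class with the highest levels and small changes. Of 36 tested, 0 passed in either genotype without the block (6 in each at an unadjusted p under 0.05), and with it 2 rose and 2 fell in Adcy10-/- and 2 rose and 3 fell in WT cells. The shares of all genes tested were 4.27% in Adcy10-/- and 4.93% in WT cells without the block. With it they were 10.7% and 14.8%, so these counts do not set the class apart. The ADP/ATP carrier Slc25a5 had 848, 895 and 801 FPKM in the Adcy10-/- cytokine libraries, against 882, 862 and 852 FPKM in the Adcy10-/- baseline libraries. Its log2 change was -0.031 (SE 0.048) in Adcy10-/- and -0.016 (SE 0.048) in WT cells. Slc25a3, which brings phosphate into the matrix, had 358, 384 and 354 FPKM in the Adcy10-/- cytokine libraries, against 405, 408 and 389 FPKM in the Adcy10-/- baseline libraries, and fell with the block (log2 change -0.13, SE 0.047, adjusted p = 0.164 without and 0.0316 with the block). In WT cells Slc25a3 had a log2 change of -0.075 (SE 0.047, adjusted p = 0.17 with the block). Slc25a23, a calcium-regulated ATP-magnesium/phosphate carrier, had 8.43, 5.70 and 6.65 FPKM in the Adcy10-/- cytokine libraries, against 5.76, 4.19 and 5.03 FPKM in the Adcy10-/- baseline libraries. The groups overlapped, and each cytokine library was above the baseline library of its number. Slc25a23 rose with the block in Adcy10-/- (log2 change 0.40, SE 0.16, adjusted p = 0.235 without and 0.0078 with the block) and WT cells (log2 change 0.28, SE 0.16, adjusted p = 0.381 without and 0.0311 with the block). Slc25a45 fell with the block in Adcy10-/- (log2 change -0.50, SE 0.26, adjusted p = 0.429 without and 0.017 with the block) and WT cells (log2 change -0.42, SE 0.26, adjusted p = 0.431 without and 0.0292 with the block), also with overlapping groups.

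The remaining mitochondrial calls came from 1 genotype each, with the block. Slc25a30 rose in Adcy10-/- cells (log2 change 0.27, adjusted p = 0.0301, against 0.16 in WT cells). The aspartate/glutamate carrier Slc25a12 had a log2 change of 0.13 in Adcy10-/- cells and rose in WT cells (0.19, adjusted p = 0.0263). The iron importer Slc25a28 (mitoferrin 2) had a log2 change of -0.064 in Adcy10-/- cells and fell in WT cells (-0.21, adjusted p = 0.0178). The folate carrier Slc25a32 had a log2 change of -0.16 in Adcy10-/- cells and fell in WT cells (-0.22, adjusted p = 0.0312). The smallest p-values without the block belonged to the NAD carrier Slc25a51 in Adcy10-/- cells (log2 change 0.18, SE 0.059, adjusted p = 0.14) and to Slc25a24, a relative of Slc25a23, in WT cells (log2 change 0.31, SE 0.11, adjusted p = 0.122).

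The cytokine response of Slc genes mostly had the same direction in the 2 genotypes, whose comparisons share no libraries. Across the 159 genes the 2 sets of log2 changes gave Pearson's r of 0.838 and Spearman's rho of 0.729, against an r of 0.768 over all genes tested, as a description across genes, which are not independent. The sign was the same for 124 of 159 (78.0%), against 75.1% of all genes tested. With the block, 31 genes passed in at least 1 genotype, all 31 with the same sign in both, and 15 passed in both, which is 83.3% of the 18 in Adcy10-/- and 53.6% of the 28 in WT cells. The 15 were Slc16a3, Slc4a11, Slc2a1, Slc39a1, Slc39a8, Slc39a14, Slc48a1, Slc27a4 and Slc25a23 (higher) and Slc29a1, Slc29a3, Slc7a1, Slc9b2, Slc23a2 and Slc25a45 (lower). The matching shares among all genes called are not given here, so these counts do not set Slc genes apart. Spread and block terms were estimated from all 12 libraries, so the calls in the 2 genotypes are not independent. A call in 1 genotype and not in the other is not a difference between them: the test of that difference passed for 0 of 159 genes without the block and for 0 with it, as for 0% of all genes tested in both fits, with 2 members at an unadjusted p under 0.05.

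**Figure D4:**
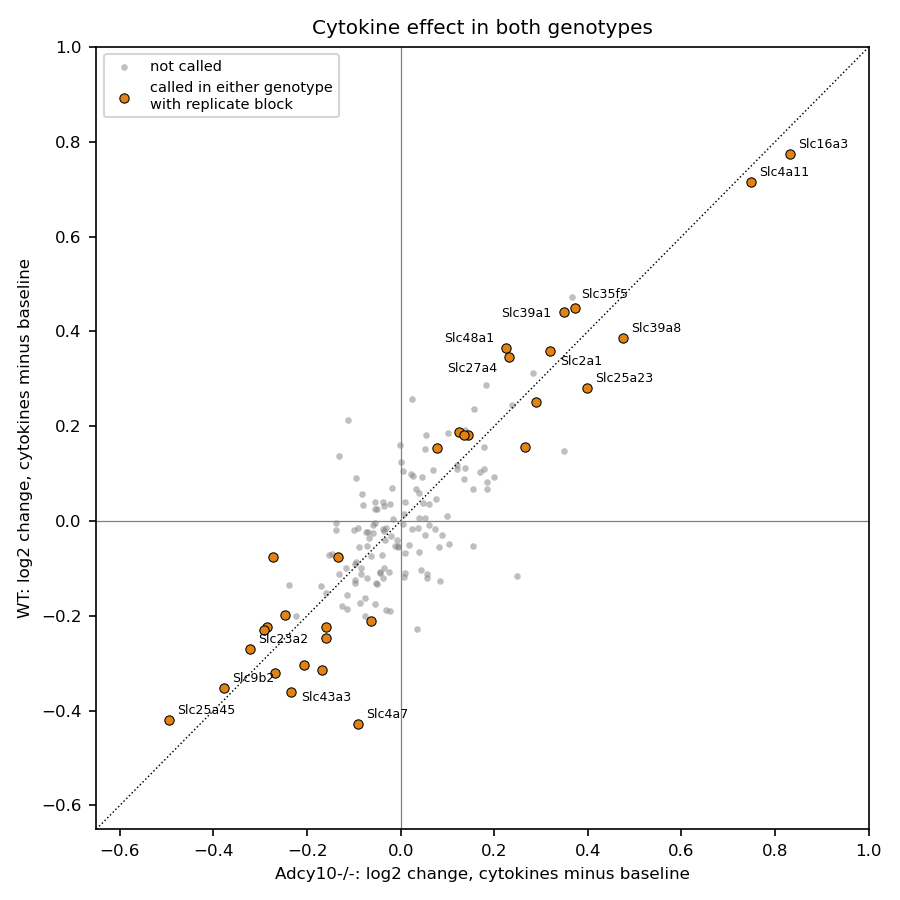
Log2 change of FPKM + 1 with cytokines in WT cells (vertical) against that in Adcy10-/- cells (horizontal) for 159 Slc genes, with a dotted line of equal change. The 31 orange genes passed with the replicate block in at least 1 genotype, and all lie at the lower left or the upper right. Slc16a3 and Slc4a11 are at the far upper right.

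No Slc gene passed the test between genotypes, and the intervals held most differences to less than 1.25-fold. Of 159, 0 passed between Adcy10-/- and WT cells in baseline medium, 0 with cytokines and 0 averaged over both media, as for 0% of all genes tested in each, and adding the block gave 0 of 159 in each as well (0%, 0% and 0.0296% of all genes). At an unadjusted p under 0.05 there were 1, 4 and 1 members. Averaged over media, the 95% interval of the difference lay within 1.25-fold either way for 150 of the 159 genes and within 1.5-fold for all 159, on the log2(FPKM + 1) scale. In baseline medium alone it lay within 1.25-fold for 121 and within 1.5-fold for 157, and with cytokines for 116 and 156. The groups did not overlap for 7 genes in baseline medium (4.40%, against 4.99% of all genes tested) and for 7 with cytokines (4.40%, against 5.08%).

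The bicarbonate family is given first here, since bicarbonate activates the enzyme that Adcy10 encodes. Slc4a2 was at 10.9 ± 0.690 FPKM in Adcy10-/- and 10.9 ± 1.03 FPKM in WT cells at baseline, and at 12.5 ± 0.513 FPKM in Adcy10-/- and 11.6 ± 0.328 FPKM in WT cells with cytokines (SD, n = 3 each). Its averaged difference was 0.048 (95% interval -0.063 to 0.16). For Slc4a7 the averaged difference was 0.016 (95% interval -0.18 to 0.21) and for Slc4a11 0.13 (95% interval -0.056 to 0.31). Slc16a3 differed by -0.12 (95% interval -0.36 to 0.13), Slc2a1 by -0.063 (95% interval -0.26 to 0.13), Slc39a1 by -0.021 (95% interval -0.17 to 0.13) and Slc39a8 by -0.047 (95% interval -0.21 to 0.12), with an adjusted p of 1.00 for each.

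The smallest p of the averaged difference belonged to Slc25a4, the ADP/ATP carrier best known from heart and muscle. It had 140.5, 141 and 139 FPKM in Adcy10-/- and 144, 157 and 161 FPKM in WT cells with cytokines, and 136, 150.4 and 145 FPKM in Adcy10-/- and 145, 152 and 155 FPKM in WT cells at baseline. With cytokines all 3 Adcy10-/- libraries were below all 3 WT libraries, and at baseline the groups overlapped. The difference with cytokines was -0.14 (SE 0.054, unadjusted p = 0.0269, adjusted p = 1.00) and the averaged one -0.10 (SE 0.038, unadjusted p = 0.0198, adjusted p = 1.00), neither of which passed. The others at an unadjusted p under 0.05 with cytokines were Slc2a3 (-0.21), Slc25a47 (0.22) and Slc35e2 (0.17). At baseline the only one was Slc38a7, a lysosomal glutamine and asparagine exporter, with 4.26, 4.32 and 4.84 FPKM in Adcy10-/- and 3.42, 3.81 and 4.05 FPKM in WT cells (log2 change 0.20, SE 0.077, adjusted p = 1.00). Those groups did not overlap. With cytokines Slc38a7 had 4.18, 4.12 and 3.68 FPKM in Adcy10-/- and 4.06, 4.50 and 4.14 FPKM in WT cells, which did overlap.

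In the test of whether the cytokine response itself differed, Slc25a47, a mitochondrial carrier known mainly from liver, and Slc38a7 had the smallest p-values. Slc25a47 had 1.22, 0.998 and 1.36 FPKM in the Adcy10-/- cytokine libraries, against 0.818, 0.859 and 0.849 FPKM in the Adcy10-/- baseline libraries. Slc25a47 in WT cells was at 0.767, 0.994 and 0.891 FPKM in the cytokine libraries, against 1.04, 1.15 and 0.930 FPKM in the baseline libraries. Its cytokine libraries were above its baseline libraries in Adcy10-/- cells, and overlapped them in WT cells with a lower mean. The interaction was 0.36 (SE 0.13, unadjusted p = 0.0158, adjusted p = 1.00) for Slc25a47 and -0.27 (SE 0.11, unadjusted p = 0.0301, adjusted p = 1.00) for Slc38a7. Slc25a47 met the 1 FPKM limit through Adcy10-/- cytokine and WT baseline libraries, which this test sets against the rest, so its value is not independent of how it was chosen. The next 3 by p were Slc25a35 (-0.33), Slc35a3 (0.26) and Slc4a7 (0.34). None of these passed over all genes tested. No gene of the partner, amino acid sensing, pump, ABC, metal or carbonic anhydrase lists passed in a genotype comparison or in the interaction, with or without the block.

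**Figure D5:**
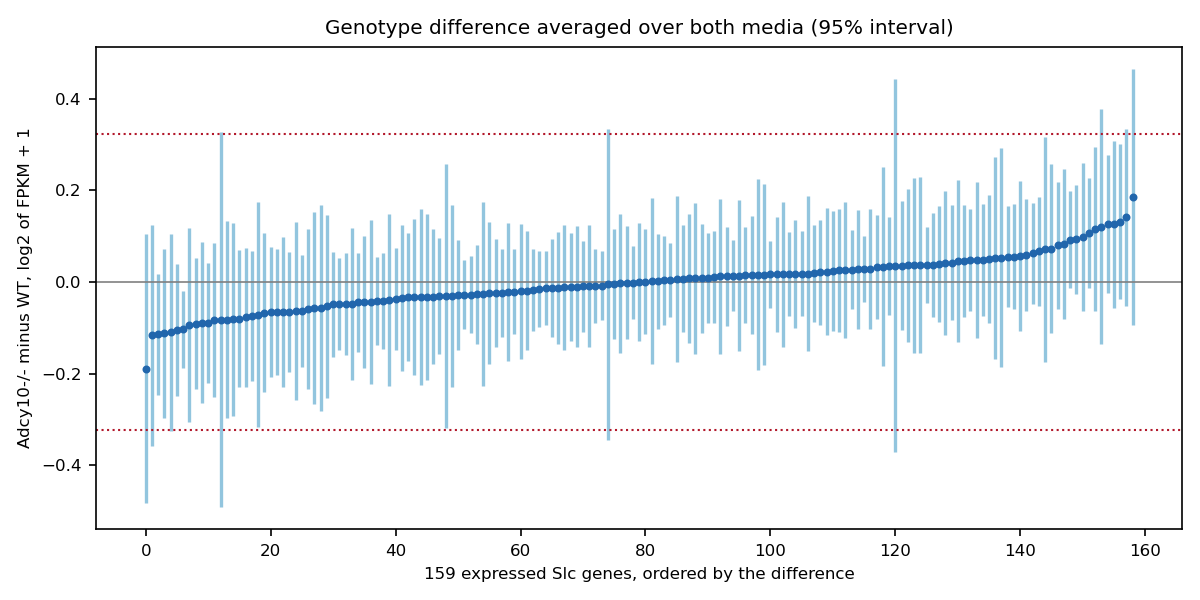
Difference Adcy10-/- minus WT averaged over both media (log2 of FPKM + 1) for each of the 159 Slc genes in order of size, with its 95% interval, and dotted lines at 1.25-fold either way. For 150 genes the whole interval lies between the dotted lines.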

How the data were processed

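The 12 deposited files hold the authors' FPKM per gene, which is scaled for transcript length and library size. The submitters' processing notes name STAR 2.4.0f1, SAMtools 0.1.19, Cufflinks, HTSeq and the build mm9, and the versions of Cufflinks and HTSeq are not given in the sources used here. FPKM holds no counts, so depth and the precision it gives are unknown, and the number of libraries limits precision. Strand use in counting is not given either. Each file has 24488 entries, and entries of the 258 names listed several times were summed, which left 23991 names; no Slc name was repeated.

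Genes at 1 FPKM or more in 3 or more of 12 libraries (10126) were tested on log2(FPKM + 1), which understates fold changes of genes near 1 FPKM. Tests used limma 3.58.1 in R 4.3.3 (the data.table package, version 1.17.8) with 4 group means over all 12 libraries and a variance trend, Benjamini-Hochberg adjustment over all tested genes and a threshold of 0.05, and the script was tested on simulated data. SE and 95% intervals are from the fit without the replicate block, except where a block SE is named. Tables and plots used Python 3.11.15, numpy 2.4.6, pandas 2.3.3 and matplotlib 3.10.9. Substrate classes were assigned by gene family.

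The labels number replicates 1 to 3 in every group without saying what a number marks. Within a genotype, the residuals of same-numbered libraries had correlations of 0.294 to 0.536 (6 pairs), so the numbers pair the libraries for both cytokine comparisons, and blocked values stand beside those. Pairs of the same number and medium across genotypes correlated at 0.0736 to 0.523 (6 pairs), with the lowest at baseline.

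The members and the gene lists were chosen with earlier results of these data known. Genes named are those called, the smallest p of each class and comparison, a fixed panel, the 3 highest of each class, those nearest the expression limit and the 5 smallest interaction p-values; genes called with the block, and the promoters, were added after their values were seen, and some genes the rule allows are given only in counts. Alternatives were the pseudocount, the expression filter, 2 scalings, the variance trend, the libraries fitted, the block and leaving out libraries. Promoter sequences are from RefSeq on GRCm38.p6, matched by symbol for 118 of 159 genes, and no coordinate was carried over from mm9.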

Additional observations from a re-analysis of the deposited data

How the results depend on the processing

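Alternatives were run for 48 gene changes (those called with the block, and in both genotypes those of genes called without it in either). Of 1097 alternative values, 942 kept their direction and side of the threshold. Another 81 passed where the main value did not, 74 lost the call, and none reversed. The 942 include values of changes not called without the block, which had no call to lose. All 74 lost calls were among the 11 changes called without the block. With 1 library left out, those calls held in 1 (Slc35b1 in WT cells) to 12 (Slc4a11 in both genotypes) of 12 fits. Their highest adjusted p in any alternative was 0.252 (Slc29a3 in Adcy10-/- cells). Among the 11 changes called without the block, only those of Slc4a11 held in every alternative run, with an adjusted p of 0.00157 to 0.0323 in Adcy10-/- and 0.00187 to 0.0352 in WT cells; this gene met the 1 FPKM limit only through cytokine libraries, so its calls are not independent of how it was chosen.

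The number of Slc genes called for the cytokine effect depended on the fit. In Adcy10-/- cells it was 4, and became 2 with no filter on low values, 2 with a filter at 5 FPKM, 18 with the replicate block, 19 with the block within genotype and 1 without the 4 libraries numbered 1. In WT cells it was 7, and became 3 with only the libraries of the comparison, 28 with the replicate block, 27 with the block within genotype and 4 without the 4 libraries numbered 1. Leaving out 1 library at a time gave 1 to 6 in Adcy10-/- cells (1 without baseline library 1 or cytokine library 2, 2 without baseline library 3 or cytokine library 1 or 3) and 1 to 9 in WT cells (1 without baseline library 2, 2 without baseline library 1 or cytokine library 1, 3 without cytokine library 3, 4 without cytokine library 2). Fits with fewer libraries have fewer degrees of freedom; the cause of the other shifts was not tested. The genotype comparisons and the interaction gave 0 in each alternative, blocked fits included.

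The number of expressed Slc genes, 159, was 156 with a limit of 1 FPKM in 6 libraries, 173 at 0.5 FPKM in 3 and 101 at 5 FPKM in 3. Without the block, quantile normalization and median-ratio scaling ended the calls of Slc20a1 in WT and Slc29a3 in Adcy10-/- cells; neither scaling moved the median of all genes by more than 0.1 on the log2 scale. With the block a call rests on pairs by number, whose meaning the labels do not give.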
